A study of Mus musculus with 6 samples.

Results

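The genes described here are 10 transcription factor genes of squamous epithelium: *Trp63*, *Sox2*, *Pitx1*, *Gata3*, *Grhl1*, *Grhl3*, *Ovol1*, *Zfp750*, *Ehf* and *Elf3*. They were chosen by name as regulators of esophageal and epidermal identity or differentiation. The rule uses no measured value, but the choice was made with earlier results of these data known. They are 10 of 19938 genes with a probe set naming a single gene, and each was read by 1 probe set. The arrays labelled mutant came from 3 ED-L2-Cre/Klf4loxp/loxp mice, and the control arrays from 3 sex-matched Klf4loxp/loxp littermates without the Cre transgene. Both groups therefore carried the floxed *Klf4* alleles, and the controls show nothing of Cre alone. The ED-L2 promoter, from Epstein-Barr virus, drives Cre in stratified squamous epithelia, the esophagus among them, so cells beneath the epithelium would keep their *Klf4*. All animals were 3 months old on a mixed genetic background, each array was 1 animal, and each group held 1 male (replicate 1) and 2 females (replicates 2 and 3). The tissue was esophageal epithelium, labelled as epithelial cells, and the measurement was biotin-labelled cRNA on a microarray.

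Stratified squamous epithelium renews itself from basal cells that divide, move upward and differentiate into flat, keratin-filled layers. p63 and Sox2 are known to hold basal cells of the esophagus in a squamous progenitor state. The grainyhead-like, Ovol and epithelial ETS factors and the zinc finger factor Zfp750 are known to act as cells leave the basal layer and build junctions and the cornified envelope. Klf4, the factor targeted here, belongs to the same late programme and binds GC-rich and CACCC-type DNA.

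None of the 10 genes differed between mutant and control arrays past the threshold, which was an adjusted p of 0.05 over all genes in limma's moderated test. The smallest adjusted p was 0.213. Over all genes, 207 of 19938 passed, or 1.04%, with 73 higher (0.366%) and 134 lower (0.672%) on the mutant arrays. At an unadjusted p under 0.05, 3 of the 10 stood out, *Grhl3*, *Sox2* and *Pitx1*, as did 12.4% of all genes. The same 3 were the ones whose mutant and control values did not overlap, *Sox2* and *Pitx1* higher and *Grhl3* lower on the mutant arrays. Groups that did not overlap were found for 18.1% of all genes, 10.1% higher and 8% lower. In direction alone, 7 of the 10 were higher and 3 lower on the mutant arrays, with a median difference of 0.087 on the log2 scale beside 0.022 for all genes.

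Some values of the whole set of arrays bear on every result. *Klf4* itself read 10.28, 10.50 and 10.28 on the mutant arrays and 9.75, 10.15 and 10.06 on the control arrays (log2 signal). The difference was 0.37 ± 0.13 (SE; limma adjusted p = 0.314), so the targeted gene gave no lower signal in the animals labelled mutant. The sources used here do not place the probes relative to the deleted part, and a probe outside it checks nothing, so every direction below rests on the labels. Of 16 measured markers of squamous epithelium, among them the keratins *Krt4*, *Krt13*, *Krt5* and *Krt14*, 15 lay above a dim limit set at the 40th percentile of mean signal over genes (4.72, log2). Markers of columnar and gland cells did so in 4 of 16. All 19 measured fibroblast markers were lower on the mutant arrays, and their summed signal ran from 3675.5 to 4027.6 there, against 5687.4 to 9329.3 on the control arrays. Smooth muscle markers were lower in 9 of 10, with sums from 1686.6 to 2625.2 on the mutant arrays and from 3126.9 to 5145.7 on the control arrays. Endothelial markers were lower in 6 of 11. Their sums ran from 505.79 to 554.29 on the mutant arrays and from 642.21 to 695.52 on the control arrays. Only *Flt1* among them had groups that did not overlap. It read 5.35, 5.58 and 5.42 on the mutant arrays and 7.75, 6.97 and 7.35 on the control arrays. Its difference was -1.90 (limma adjusted p = 0.00982). The other 10 did not pass, so these sums do not stand for the list as a whole. Skeletal muscle markers varied widely within both groups, with sums from 1207.7 to 9854.1 on the mutant arrays and from 1086.1 to 28465 on the control arrays. In RNA pooled from many cells, fewer cells of a type in the preparation and less RNA per cell cannot be told apart.

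**Figure D1:**
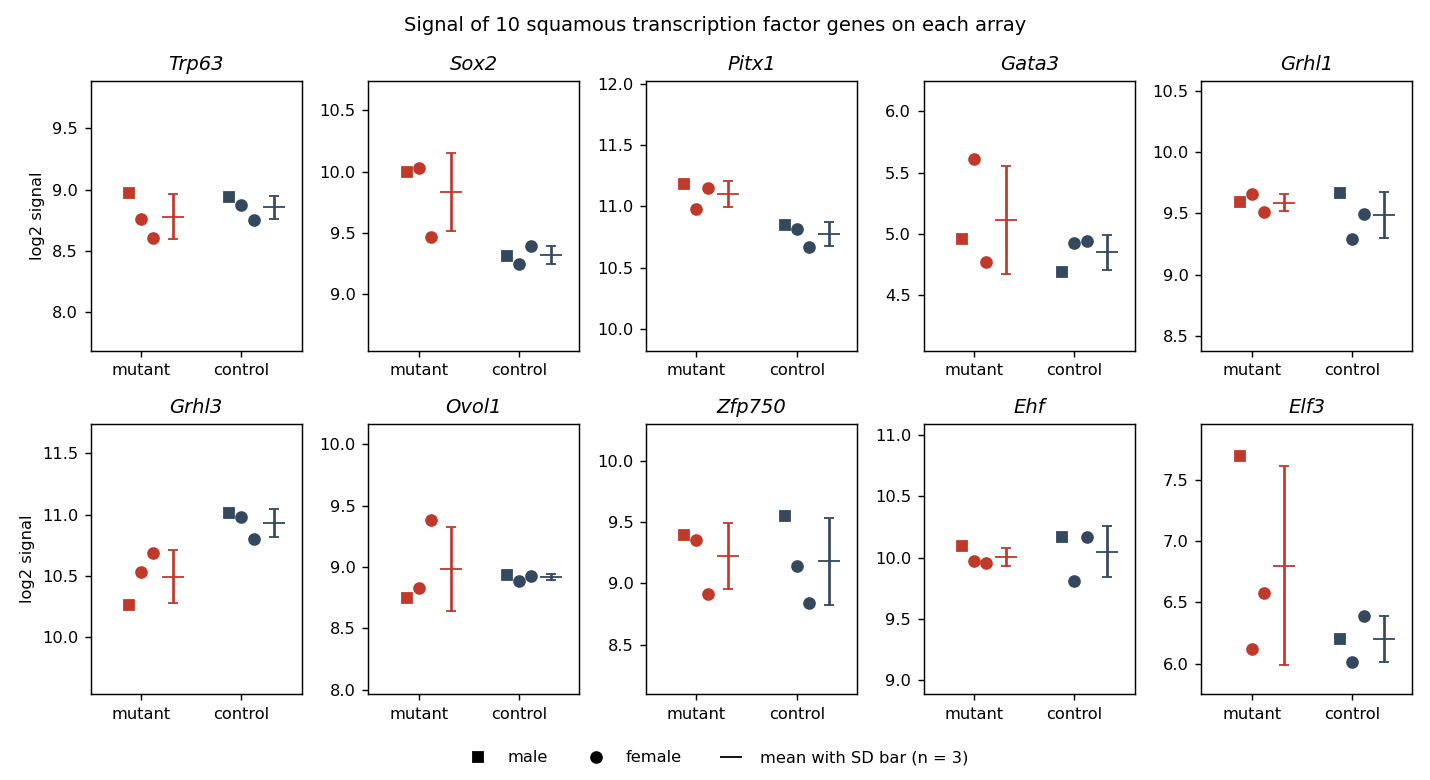
Log2 signal of each of the 10 genes on the 3 mutant and 3 control arrays, one panel per gene. Squares are males, circles females, and bars give the mean with the SD (n = 3); the panels, which share one span on the log2 axis, show *Sox2*, *Pitx1* and *Grhl3* with separate groups, and *Elf3* with the male mutant at 7.70 far above the other 5 arrays.

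Among the regulators of squamous identity, *Sox2* and *Pitx1* read higher on every mutant array than on any control array. *Sox2*, encoding an HMG-box factor needed for the foregut to form an esophagus, read 10.0005, 10.03 and 9.46 on the mutant arrays and 9.31, 9.25 and 9.40 on the control arrays. The mutant females stood apart from each other, since replicate 3 lay just above the highest control. The means were 9.83 ± 0.32 in mutant and 9.32 ± 0.075 in control animals (SD, n = 3 each), a difference of 0.51 ± 0.16 (SE) with a 95% interval from 0.14 to 0.89 on the log2 scale. That is 1.43-fold, with an unadjusted p of 0.0138 and an adjusted p of 0.231 in limma. The *Sox2* difference came closest to the threshold when mutant replicate 3 was left out, at 0.70 with an adjusted p of 0.0540.

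*Pitx1*, encoding a homeobox factor best known for hindlimb identity and also made in oral epithelium, had the smallest SE of the 10. It read 11.18, 10.98 and 11.15 on the mutant arrays and 10.85, 10.81 and 10.66 on the control arrays. The group means differed by 0.33 ± 0.10 (SE; limma adjusted p = 0.241), with an interval from 0.084 to 0.57 on the log2 scale, or 1.06-fold to 1.48-fold. Its lowest mutant value, in replicate 2, lay above the highest control value, that of the male.

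*Trp63*, encoding p63, the factor on which basal cells of all stratified epithelia depend, had overlapping groups. It read 8.97, 8.76 and 8.60 on the mutant arrays and 8.94, 8.88 and 8.76 on the control arrays. The difference was -0.080 ± 0.121 (SE; limma adjusted p = 0.856), and its 95% interval, from -0.36 to 0.20, leaves room for changes between 0.779-fold and 1.15-fold of the control level.

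*Gata3*, encoding a zinc finger factor of barrier lipid synthesis in epidermis and of T helper and innate lymphoid cells, gave a dim and scattered signal. Its probe set read 4.96, 5.61 and 4.77 on the mutant arrays and 4.69, 4.92 and 4.94 on the control arrays, not far above the dim limit, so its differences may be compressed. Mutant replicates 1 and 2 lay above the control range, replicate 1 by little, and replicate 3 lay inside it. The difference was 0.26 ± 0.21 (SE; limma adjusted p = 0.703) and ran from 0.014 without mutant replicate 2 to 0.43 without mutant replicate 3. With the fibroblast marker mean as a covariate it was 0.80. Since lymphoid cells also make *Gata3*, their markers were read on the same arrays. Of 12 measured, 4 lay above the dim limit, among them *Thy1*, which is also a fibroblast marker. The summed signal of the 12 was 389.16 to 421.43 on the mutant arrays and 421.07 to 438.01 on the control arrays. Only *Thy1* had groups that did not overlap, lower on the mutant arrays by 0.58 on the log2 scale (limma adjusted p = 0.0479). It passed in 0 of 6 cases with 1 array left out. The other 11 markers did not pass, so these sums do not stand for the list as a whole. The part of lymphoid cells in the *Gata3* values was not tested.

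Among the factors of differentiation, none of the grainyhead-like genes passed. *Grhl3*, encoding the factor that drives barrier formation and wound closure in skin, read 10.26, 10.53 and 10.69 on the mutant arrays and 11.02, 10.98 and 10.81 on the control arrays. Every mutant value lay below every control value, the male mutant lowest of all. The means were 10.49 ± 0.22 in mutant and 10.94 ± 0.11 in control animals (SD, n = 3 each). The difference, -0.44 ± 0.13 (SE), had an interval from -0.75 to -0.13 on the log2 scale, or 0.595-fold to 0.913-fold, before any adjustment for the number of genes. In the females alone it was -0.28. Its unadjusted p of 0.0114 was the smallest of the 10 and held rank 1071 among all genes, which left an adjusted p of 0.213 in limma.

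*Grhl1*, whose product controls desmosomal cadherins in epidermis, read 9.59, 9.66 and 9.51 on the mutant arrays and 9.67, 9.29 and 9.50 on the control arrays. The groups overlapped, and the difference was 0.10 ± 0.12 (SE; limma adjusted p = 0.80). *Grhl2*, the family member known from simple as well as stratified epithelium, read 7.14, 7.35 and 7.15 on the mutant arrays and 7.09, 6.78 and 6.96 on the control arrays, without overlap. Its difference was 0.27 ± 0.12 (SE; limma adjusted p = 0.422). The 3 differences stand side by side here, and no test was made of one family member against another.

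Because the targeted factor binds CACCC-type sequence, the bases before the start of 3 of these genes are shown: *Grhl3* and *Sox2*, which had the smallest p-values, and *Elf3*, which had the widest spread. RefSeq's table for build GRCm38.p6 held promoters for 5 of the 10 genes, *Sox2*, *Grhl1* (with 2 starts), *Grhl3*, *Gata3* and *Elf3*. Each sequence gives the 250 bases before the start, 5′ to 3′ on the gene's strand, at chr4:135573633-135573882 (minus strand) for *Grhl3*, chr3:34649745-34649994 (plus strand) for *Sox2* and chr1:135258473-135258722 (minus strand) for *Elf3*. Capitals mark CACCC on either strand (GGGTG on the strand shown).
Grhl3: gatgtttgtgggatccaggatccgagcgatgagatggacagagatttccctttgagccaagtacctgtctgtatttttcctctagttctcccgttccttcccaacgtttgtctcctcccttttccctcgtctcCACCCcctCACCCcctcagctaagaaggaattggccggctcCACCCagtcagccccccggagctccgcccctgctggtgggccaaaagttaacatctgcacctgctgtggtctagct
Sox2: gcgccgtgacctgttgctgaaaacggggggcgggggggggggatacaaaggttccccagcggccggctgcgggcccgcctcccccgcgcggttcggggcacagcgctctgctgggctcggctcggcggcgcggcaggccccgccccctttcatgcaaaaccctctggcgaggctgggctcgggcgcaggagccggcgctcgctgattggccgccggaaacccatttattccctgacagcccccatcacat
Elf3: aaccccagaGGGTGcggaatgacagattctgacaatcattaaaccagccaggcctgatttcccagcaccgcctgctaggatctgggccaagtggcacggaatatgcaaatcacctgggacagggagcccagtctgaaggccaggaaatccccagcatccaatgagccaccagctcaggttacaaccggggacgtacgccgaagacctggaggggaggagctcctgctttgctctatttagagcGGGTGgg
In this window *Grhl3* held 3 such matches, *Elf3* held 2 and *Sox2* held 0.

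The motif counts cover the whole 300 bases from 250 before to 50 after the start. CACCC was found in 4 of the 5 genes with a promoter, and 57.5% of all 32851 promoters in the table hold it. A gene counts here if any of its starts holds the motif, while the share is per promoter. The first start of *Grhl1* held 0 copies of CACCC. At least 3 copies, as in *Grhl3* and *Gata3*, occur in 9.35% of promoters, and at least 2, as in *Elf3* and the second start of *Grhl1*, in 25.7%. The ETS-type motif AGGAAG was found in 1 of the 5 genes, *Grhl1* at its second start, beside 35.4% of all promoters. The grainyhead-type motif AACCNGTT and the AP-1-type motif TGANTCA were found in 0 of the 5, beside 2.09% and 7.81% of all promoters. Both strands were searched for each motif, and no matches of different motifs overlapped in these promoters. GC content ran from 51.3% at the second start of *Grhl1* to 75.3% at its other start, and 5 of the 6 windows lay above the median of 52.7% for all promoters. A match describes the letters only, and binding was not measured here.

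*Ovol1* and *Zfp750* had overlapping mutant and control values. *Ovol1*, encoding a zinc finger repressor of proliferation genes such as *Myc* and *Id2*, read 8.75, 8.83 and 9.38 on the mutant arrays and 8.93, 8.89 and 8.92 on the control arrays. The controls lay within a narrow band, with an SD of 0.025, while the mutants had an SD of 0.34 with replicate 3 above and the other mutants below every control. The difference of means was 0.071 ± 0.168 (SE; limma adjusted p = 0.918) and -0.13 without mutant replicate 3. *Ovol2*, its closest relative, was also highest on mutant replicate 3, at 5.46, 5.55 and 5.99 on the mutant arrays against 5.43, 5.37 and 5.43 on the control arrays. The mutant and control values of *Ovol2* did not overlap, and its difference was 0.26 ± 0.15 (SE; limma adjusted p = 0.548).

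*Zfp750*, encoding a zinc finger factor that acts between p63 and Klf4 in human epidermal cells, read 9.40, 9.35 and 8.92 on the mutant arrays and 9.55, 9.14 and 8.84 on the control arrays. The spread within each group, with SDs of 0.27 in mutant and 0.36 in control animals (n = 3 each), was several times the difference of 0.043 ± 0.205 (SE; limma adjusted p = 0.959). With 1 array left out at a time its difference lay between -0.13 and 0.23, so its direction was not settled.

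Neither of the epithelial ETS factors passed. *Ehf* read 10.09, 9.98 and 9.96 on the mutant arrays and 10.17, 9.81 and 10.17 on the control arrays, and the mutant values lay inside the control range. Its difference was -0.039 ± 0.125 (SE; limma adjusted p = 0.938). *Elf3*, which activates genes of terminal differentiation such as the human *SPRR2A* in cultured cells, read 7.70, 6.12 and 6.58 on the mutant arrays and 6.20, 6.01 and 6.39 on the control arrays. The male mutant stood far above the other arrays. Of the mutant females, replicate 2 lay inside the control range and replicate 3 a little above it. The mean difference of 0.60 ± 0.36 (SE) was the largest of the 10 in size, with an interval from -0.24 to 1.43 on the log2 scale and an adjusted p of 0.586 in limma. Without mutant replicate 1 it was 0.15.

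The sexes were compared for each of the 10 genes with an interaction term, which rests on a single male per genotype. Mutant minus control, *Elf3* differed by 1.49 between the males and by 0.15 between the females. The difference of these effects, 1.34 ± 0.36 (SE), had an unadjusted p of 0.0101 and an adjusted p of 0.612 in limma. No other member had an unadjusted p under 0.05, as 5.82% of all genes did. None of the 10 passed the threshold (0 calls in limma), against 0.0451% of all genes. The summed signal of macrophage and Langerhans cell markers was also highest on the male mutant array. It was 3232.6 there, against 1997.9 and 2117.4 on the other mutant arrays and 1771.7 to 2462.4 on the control arrays. Single markers differed: *Cd68* rose (1.11, limma adjusted p = 0.0304), *Lyz2* fell (-1.57, adjusted p = 0.0463) and 16 did not pass. Over all genes, 1.04% passed. With 1 array left out at a time, *Cd68* passed only without mutant replicate 1 and *Lyz2* only without control replicate 1. On the male mutant array *Cd68* read 7.58, the lowest of the mutant arrays, and *Lyz2* read 6.94, below every control array. The part of these markers in the *Elf3* value was not tested.

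**Figure D2:**
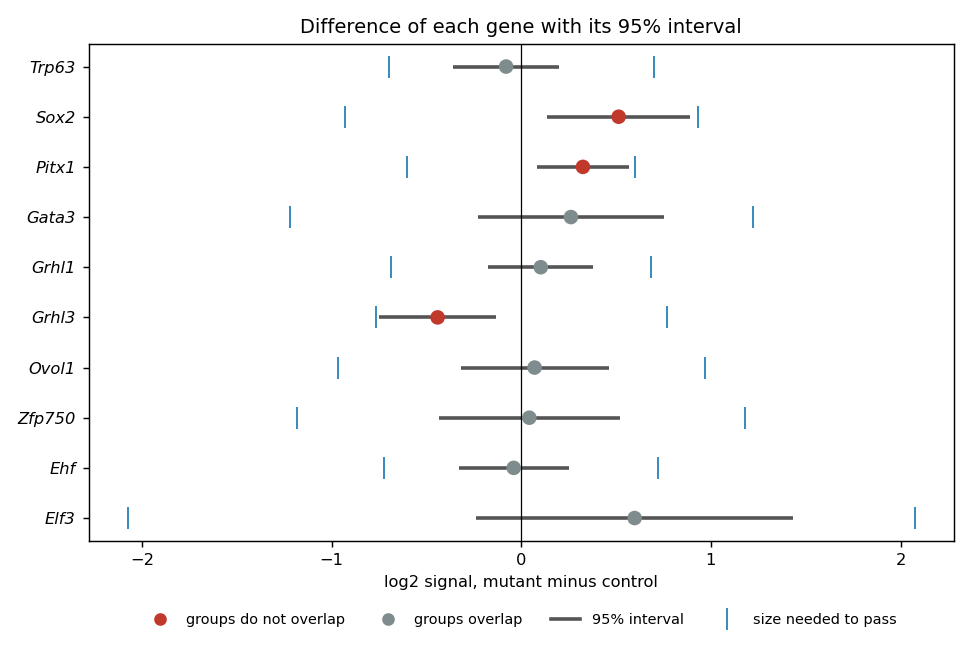
Difference in log2 signal (mutant minus control) for each gene, with 95% intervals from limma and ticks at the size each gene would have needed to pass. Red points are the 3 genes whose groups do not overlap; no point reaches its tick, and the needed size ran from 0.60 for *Pitx1* to 2.07 for *Elf3*.

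How large a change could have been called depended on the spread of each gene. The largest unadjusted p among the 207 genes that passed was 0.000506. At that value and with their own SE, *Pitx1*, *Grhl1* and *Trp63* would have needed differences of 0.60, 0.69 and 0.70 on the log2 scale, *Ehf* and *Grhl3* 0.72 and 0.77, *Sox2* and *Ovol1* 0.93 and 0.97, *Zfp750* and *Gata3* 1.18 and 1.22, and *Elf3* 2.07. The smallest difference among the genes that passed was 0.52. The observed differences of the 10 genes had a median size of 0.18, beside 0.14 for genes above the dim limit, and a median SE of 0.15, beside 0.12 for all genes. A p that misses the threshold at these sizes is no evidence that a gene stayed the same.

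Fibroblast markers were lower on the same arrays on which *Grhl3* was lower and *Sox2* and *Pitx1* were higher. The mean log2 signal of the 19 markers was 6.74 to 6.97 on the mutant arrays and 7.32 to 7.93 on the control arrays. With that mean as a covariate, *Grhl3* differed by -0.49 ± 0.33 and *Sox2* by 0.52 ± 0.40, close to their values without it, while *Pitx1* differed by 0.088 ± 0.246 (log2, SE). None of the 10 passed (limma adjusted p = 0.9996 for each), and 2 genes in all did. The covariate itself separates the groups.

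**Figure D3:**
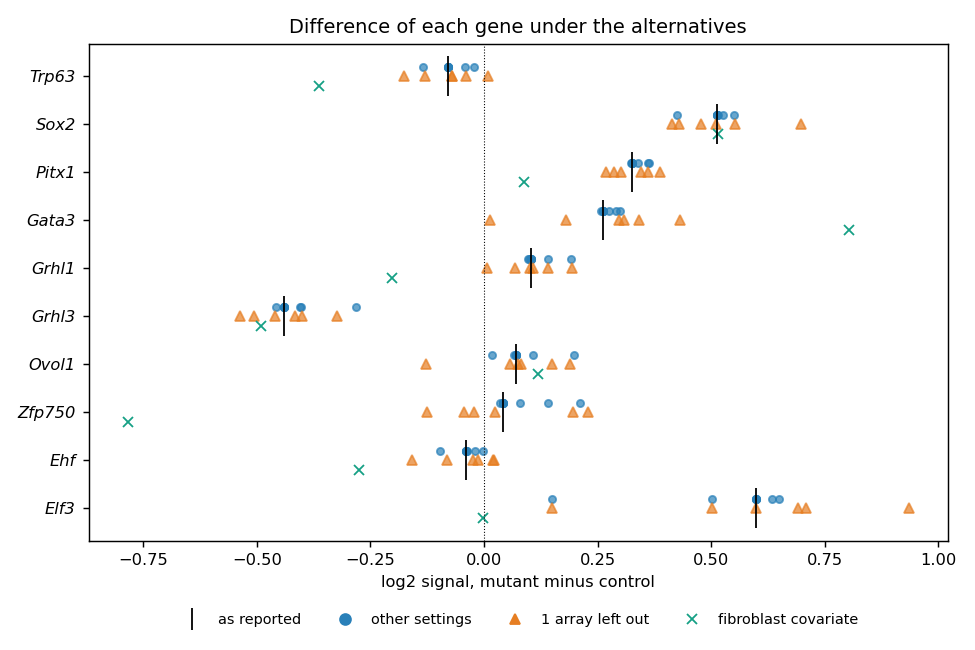
Difference in log2 signal (mutant minus control) of each gene as reported (bars), under 9 other settings (circles), with 1 array left out (triangles) and with the fibroblast marker mean as a covariate (crosses). *Sox2*, *Pitx1*, *Gata3* and *Grhl3* stay on one side of 0 under all of them, and the differences of *Trp63*, *Grhl1*, *Ovol1*, *Zfp750*, *Ehf* and *Elf3* cross it at least once.

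By a fixed rule, the genes with array values most like *Grhl3* and *Sox2* were sought as those with the smallest root mean square difference over the 6 arrays after removing each gene's mean. For *Grhl3* these were the ATP receptor gene *P2rx7* (0.051 log2 units), the metalloprotease gene *Adam15* (0.060) and the sialidase gene *Neu3* (0.061). They differed by -0.43, -0.38 and -0.41 between the genotypes, and none passed. For *Sox2* they were *Cwh43* (0.064), the polyprenol reductase gene *Srd5a3* (0.086) and the Golgi transporter gene *Tmem165* (0.094), with differences of 0.54, 0.47 and 0.47, and none passed. *Cwh43*, *Srd5a3* and *Tmem165* all lie on chromosome 5 in the GRCm38.p6 annotation, where *Srd5a3* and *Tmem165* are neighbouring protein-coding genes, while *Sox2* lies on chromosome 3. Within 0.1 log2 units there were 43 such genes for *Grhl3* and 5 for *Sox2*, and 6 arrays carry little information on likeness.

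Relatives of the 10 genes in the same families were read in the same way. Of 30 measured, 0 passed in limma, beside 1.04% of all genes, and 3 had an unadjusted p under 0.05, beside 12.4%. Groups did not overlap in 8, 4 higher and 4 lower, beside 18.1% of all genes. The median difference was 0.043. The largest difference was that of *Elf5*, an epithelial ETS factor known from mammary gland and trophoblast. *Elf5* read 7.39, 7.81 and 8.07 on the mutant arrays and 8.87, 8.21 and 8.92 on the control arrays, without overlap. Its difference was -0.91 ± 0.23 (SE; limma adjusted p = 0.150), opposite in sign to *Elf3*. *Sox4* differed by -0.60 ± 0.17 (SE; adjusted p = 0.182) and *Trp73*, encoding p73, by -0.24 (adjusted p = 0.527).

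Of 58 other regulators of squamous epithelium measured, 1 fell, 0 rose and 57 did not pass, with a median difference of 0.038. At an unadjusted p under 0.05 there were 10 of the 58, beside 12.4% of all genes. Groups did not overlap in 16, 11 higher and 5 lower on the mutant arrays, beside 18.1% of all genes. The gene that fell was *Nr3c1*, encoding the glucocorticoid receptor. It read 6.91, 6.84 and 6.87 on the mutant arrays and 7.56, 7.57 and 7.51 on the control arrays, with SDs of 0.034 in both groups (n = 3 each). Its difference was -0.67 ± 0.086 (SE; limma adjusted p = 0.0170), and with any 1 array left out the adjusted p lay between 0.0509 and 0.0905. It did not pass in the females alone or with the fibroblast covariate either. *Klf5*, a factor of proliferating epithelium related to *Klf4*, differed by 0.28 ± 0.089 (SE; adjusted p = 0.249), and *Tfap2c*, an AP-2 factor of early keratinocytes, by 0.20 ± 0.16 (adjusted p = 0.703).

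Genes that these factors are known to control were read from lists chosen by literature role, together with partners, cofactors and genes of foregut identity. The lists were chosen with earlier results of these data known, so their counts are no test of a list as a set. Of 22 measured p63 targets and partners, 1 fell, 0 rose and 21 did not pass, with 16 lower on the mutant arrays and a median of -0.24. The one that fell was *Evpl*, encoding envoplakin of the cornified envelope (-1.03 ± 0.16, SE; limma adjusted p = 0.0370). At an unadjusted p under 0.05 there were 9 of the 22, beside 12.4% of all genes. The mutant and control values of 8 did not overlap, all 8 lower on the mutant arrays, beside 8% of all genes that were lower without overlap. On the list of Grhl targets, 1 of 23 genes rose and 2 fell. Here 8 of the 23 had an unadjusted p under 0.05 in limma, beside 12.4% of all genes. Groups did not overlap in 7, 3 higher and 4 lower, beside 18.1% of all genes. *Rhof*, encoding a small GTPase, fell by 1.22 ± 0.13 on the log2 scale (SE; limma adjusted p = 0.0118) and *Dsc2*, encoding a desmosomal cadherin, rose by 0.85 ± 0.12 (adjusted p = 0.0247). *Evpl*, which stands on both lists, was the other that fell. With 1 array left out at a time, *Rhof* passed in 5 of 6 cases and failed without control replicate 3 (adjusted p = 0.0651), and *Evpl* and *Dsc2* passed in 1 of 6 each, *Evpl* without mutant replicate 1 and *Dsc2* without mutant replicate 3. In the 4 females alone none of these 3 genes passed.

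On the list of Elf3, Ehf and terminal differentiation targets, 4 of 22 genes rose, 1 fell (*Evpl* again) and 17 did not pass, with a median of 0.0065. On this list 10 of the 22 had an unadjusted p under 0.05 in limma, beside 12.4% of all genes. Groups did not overlap in 11, 5 higher and 6 lower, beside 18.1% of all genes. Those that rose were *Sprr2h*, *Sprr2f* and *Sprr2d*, whose small proline-rich products are built into the cornified envelope, and *Ctsc*, encoding the protease cathepsin C. *Sprr2f* read 11.21, 11.75 and 11.85 on the mutant arrays and 4.80, 6.38 and 4.68 on the control arrays, without overlap. The *Sprr2* genes are near-identical in sequence and can share signal. Of 20 measured Ovol1 and Zfp750 targets and cofactors, 4 had an unadjusted p under 0.05 in limma, beside 12.4% of all genes. Groups did not overlap in 7, 5 higher and 2 lower, beside 18.1% of all genes. Here 1 gene rose, beside 0.366% of all genes, and 19 did not pass. The gene that rose was *Plin2*, encoding a lipid droplet coat protein, at 10.45, 10.48 and 10.10 on the mutant arrays and 8.99, 8.93 and 8.90 on the control arrays (limma adjusted p = 0.00595). Of 26 measured Sox2 and foregut identity genes, 3 had an unadjusted p under 0.05 in limma, beside 12.4% of all genes. Groups did not overlap in 4, 0 higher and 4 lower, beside 18.1% of all genes. On this list 1 gene fell, beside 0.672% of all genes, and 25 did not pass. *Wnt5a*, encoding a secreted Wnt ligand, read 5.35, 5.86 and 5.81 on the mutant arrays and 7.23, 7.20 and 7.34 on the control arrays (limma adjusted p = 0.00717). With the fibroblast marker mean as a covariate, only *Sprr2h* of the genes called on these lists still passed. *Sprr2h*, *Sprr2f*, *Plin2* and *Wnt5a* passed with any 1 array left out, *Ctsc* in 3 of 6 cases (not without mutant replicate 1, mutant replicate 2 or control replicate 3) and *Sprr2d* in 2 of 6 (without control replicate 1 or 3).

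**Figure D4:**
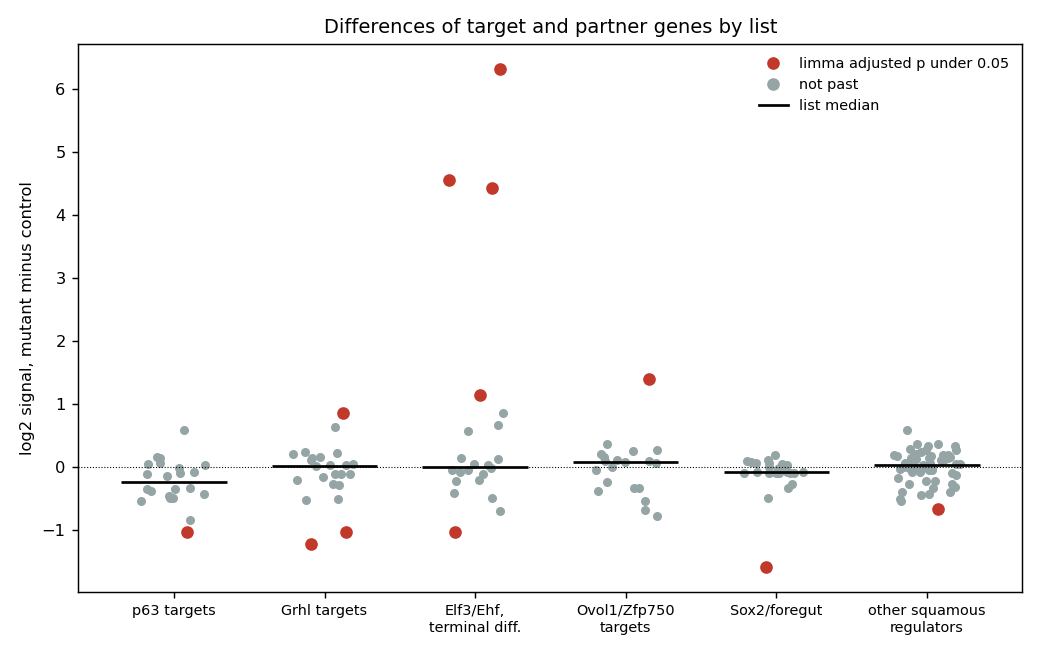
Difference in log2 signal (mutant minus control) of every measured gene on 6 lists of targets, partners and other regulators. Red points passed limma's adjusted p of 0.05, grey points did not, and lines give list medians; medians lie between -0.24 and 0.078 while single genes reach 6.32 (*Sprr2f*) and -1.58 (*Wnt5a*).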

How the data were processed

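Column-purified total RNA was turned into biotinylated cRNA by linear amplification from oligo-dT primers, per the labels' protocols. The authors deposited 1 table of log2 signal with 28853 probe sets for the 6 arrays, and the scale was read from its values. The submitters' processing notes name Partek 6.4 and nothing else. How background was corrected and how probes were normalized and summarized is not given in the sources used here. Those steps set the compression of dim genes. Depth does not apply to arrays, and their number limits the precision.

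Gene names came from the platform annotation, where 21789 probe sets had 1 gene symbol, 1621 several and 5443 none, and were brought to GRCm38.p6 symbols by Entrez identifier (21698 of 21789 matched). The probe set of highest mean was kept among those naming 1 gene, and no values were filtered or renormalized. Mutant and control were compared with limma 3.58.1 in R 4.3.3 (lmFit, eBayes, two-sided, 4 residual and 7.58 total degrees of freedom), with Benjamini-Hochberg adjustment over all 19938 genes. Errors of differences are moderated SEs. A permutation test of 3 arrays against 3 cannot reach 0.05 and was not used. The steps were tested on simulated data. Promoters came from RefSeq's table. Python 3.11.15 and matplotlib 3.10.9 served for sequences and plots.

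The named genes are the members, *Klf4*, the fixed relatives or regulators *Grhl2*, *Ovol2*, *Elf5*, *Klf5* and *Tfap2c* (another is not reported here), up to 6 passing genes or else the 2 with the smallest p of each list, and the genes of closest profile. *Krt4*, *Krt13*, *Krt5*, *Krt14* and *Trp73* stand outside that rule. Members, lists and tests were chosen with earlier results of these data known. The series' design text names 3 mice per group. The labels do not show that replicate numbers paired the mice. Deviations of same-numbered arrays from their group means correlated at -0.17, 0.090 and -0.10 over genes. With 3 arrays per group, these values cannot settle whether the mice were paired.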

Additional observations from a re-analysis of the deposited data

How the results depend on the processing

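None of the 10 genes passed limma's threshold under any of 16 alternatives: quantile normalization, array medians subtracted, no dim genes, the mean of all probe sets, sex as a covariate, array weights, an intensity trend, the replicate block, the 4 females alone, the fibroblast covariate and each array left out. The interaction with sex called 0 of the 10 under both of its alternatives. Over all genes, 207 passed as reported, 81 with the replicate block, 370 with array weights, 83 in the females alone, 2 with the fibroblast covariate and between 44 and 193 with 1 array left out (44 without control replicate 3, 93 without mutant replicate 1 or 2, 102 without mutant replicate 3, 106 without control replicate 2). The replicate block, which the labels do not show to be a pairing, changed no call among the 10. Among the other genes named here, it ended the calls of *Nr3c1*, *Evpl*, *Dsc2*, *Sprr2d*, *Cd68*, *Lyz2* and *Thy1*. Array weights also ended that of *Sprr2d*. Their median difference of 0.087 was 0.17 in the females alone, -0.10 with the fibroblast covariate and between 0.041 and 0.19 with 1 array left out.

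*Grhl1*, *Zfp750* and *Elf3* turned to -0.20, -0.78 and -0.0016 with the fibroblast covariate, *Gata3* came to 0.80, and the cause was not tested. With 1 array left out, *Trp63* ran from -0.18 to 0.0079, *Ovol1* from -0.13 to 0.19, *Zfp750* from -0.13 to 0.23 and *Ehf* from -0.16 to 0.021. *Sox2* ran from 0.41 to 0.70, *Grhl3* from -0.54 to -0.32, *Pitx1* from 0.27 to 0.39, *Gata3* from 0.014 to 0.43, *Grhl1* from 0.0073 to 0.19 and *Elf3* from 0.15 to 0.94, where its lowest value came without mutant replicate 1. In the females alone *Grhl3* and *Elf3* differed by -0.28 and 0.15, against -0.44 and 0.60 on all 6 arrays.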
